A study of Mus musculus with 12 samples.

Results

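The genes described here are 10 markers that are widely used to recognise the resident macrophages of bone marrow. They are Adgre1, Csf1r, Cd68, Vcam1, Cd163, C1qa, C1qb, C1qc, Mertk and Axl, and they were taken by name from the 31340 rows (31272 gene names) of an RNA-seq series of 12 libraries. Each library came from WT mouse bone marrow cells that had been sorted as HSCs, hematopoietic stem cells, and the libraries fall into 4 groups of 3 replicates. Ctrl is the unirradiated group and IR is the group exposed to ionizing radiation. In Ab_IR and L_IR the treatment labels add the terms Ab and L to IR, and what Ab and L stand for is not given in the sources used here. The labels place the sort at 3 days after IR, the methods of the study give the strain as C57BL/6, and the age of the mice is not given in the sources used here. HSCs were defined in those methods as Lineage- Sca-1+ c-Kit+ Flt3- CD34- cells after magnetic depletion of lineage-positive cells. The lineage mix included an antibody to Mac-1, the product of Itgam, which most macrophages carry. The labels do not say whether replicates came from separate mice, so the p-values measure only the spread between these samples.

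Macrophages of the marrow sit at the centre of islands of maturing red cells, swallow their expelled nuclei, clear dying cells and recycle iron. They depend on signals through the receptor CSF1R, they are a main source of the complement recognition protein C1q, and they take up apoptotic cells through the receptor kinases MERTK and AXL. They also hold stem and progenitor cells in the marrow, in part through the adhesion molecule VCAM1. None of these genes is confined to macrophages. Csf1r and Adgre1 are also made by monocytes, Cd68 by many myeloid cells, and Vcam1 and Axl by stromal and endothelial cells.

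The 10 genes lie on 8 mouse chromosomes (GRCm38, GENCODE M21), and only the 3 C1q chain genes are neighbours. C1qb, C1qc and C1qa follow each other on the minus strand of chromosome 4 between 136880129 and 136898803, a span of 18675 bases with gaps of 3616 and 2851 bases between the genes. Promoter sequence from RefSeq (GRCm38.p6) was at hand for 6 of the 10 members. The windows of Cd68, C1qb and Axl are shown because these genes, of different function and position, each carry 1 copy of GAGGAA, the core recognised by the macrophage factor PU.1 (Spi1) and related ETS factors. Each run is the 250 bases upstream of the annotated start on the gene's own strand, 5′ to 3′, and capitals mark GAGGAA or its reverse complement.

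Cd68 (chr11:69666171-69666420, minus strand): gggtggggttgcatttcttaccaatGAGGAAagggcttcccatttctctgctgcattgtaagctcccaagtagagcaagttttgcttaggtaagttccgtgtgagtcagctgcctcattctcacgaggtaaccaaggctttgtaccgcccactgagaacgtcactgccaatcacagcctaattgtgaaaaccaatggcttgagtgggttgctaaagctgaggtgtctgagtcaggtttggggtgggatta

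C1qb (chr4:136886201-136886450, minus strand): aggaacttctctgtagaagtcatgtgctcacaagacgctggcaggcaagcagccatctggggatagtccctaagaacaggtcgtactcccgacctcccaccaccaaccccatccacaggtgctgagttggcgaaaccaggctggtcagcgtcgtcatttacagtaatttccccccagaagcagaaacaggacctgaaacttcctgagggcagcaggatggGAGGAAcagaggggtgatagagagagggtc

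Axl (chr7:25788734-25788983, minus strand): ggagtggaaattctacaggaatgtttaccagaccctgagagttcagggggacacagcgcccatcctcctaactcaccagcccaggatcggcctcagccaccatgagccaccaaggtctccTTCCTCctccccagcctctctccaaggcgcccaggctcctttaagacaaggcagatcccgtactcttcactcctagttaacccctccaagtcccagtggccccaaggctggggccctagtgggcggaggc

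GAGGAA, searched on both strands, was present in 4 of these 6 windows, the fourth being that of C1qc, and in 23.3% of 32841 promoter windows of the same length. The windows of Cd163 and Mertk did not contain it. The shorter ETS core GGAA, which every GAGGAA contains, was found in all 6 windows and in 93.5% of all windows. TGCTGA, the core of the MAF recognition element, occurred in the window of C1qb and in 16.1% of all windows. AGGTCA, the core recognised by nuclear receptors, occurred in that of C1qc and in 14% of all windows. The interferon-stimulated response element was in none of the 6 windows and in 2.98% of all windows. These matches describe the letters only.

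Levels are FPKM values, that is, fragments scaled by transcript length and by the size of the library, so they can be compared between genes. Cd68 had the highest mean of the 10 over the 12 libraries, 23.0 FPKM, followed by Csf1r at 16.3, C1qb at 14.5, Vcam1 at 13.6, C1qa at 12.5, Adgre1 at 9.12, C1qc at 6.60, Axl at 4.17, Cd163 at 2.06 and Mertk at 0.884 FPKM. The ranges of neighbours in this order overlapped, except between Axl and Cd163 and between Cd163 and Mertk. The order was not the same in the 4 groups. In Ctrl, Vcam1 (19.4 to 20.3 FPKM) and Cd68 (18.5 to 22.2) led and overlapped. In IR, Cd68 stood alone at the top, and Csf1r and Vcam1 were below C1qa and C1qb. In Ab_IR and L_IR, Cd68 and Csf1r were first and second with no overlap between them. The summed level of the 10 genes was 106 to 110 FPKM in Ctrl, 68.9 to 74.2 in IR, 113 to 122 in Ab_IR and 109 to 119 in L_IR, so that the IR libraries lay below the other 9.

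The libraries themselves limit how these levels can be read. The RNA included abundant transcripts of other cell types than stem cells. Genes of neutrophils and monocytes summed to 6582 to 13191 FPKM, and Igkc, an immunoglobulin light chain gene, reached 9409 to 24973 FPKM. The stem cell genes Hoxb5 and Mecom were at most 0.07 and 0.25 FPKM, whereas Kit and Ly6a, which encode the sorted surface proteins, were present in every library. The RNA of Flt3, whose protein the gate excludes, was 9.13 to 12.1 FPKM in Ctrl, 0.96 to 1.22 in IR, 7.45 to 7.57 in Ab_IR and 5.6 to 6.02 in L_IR, so that it too was lowest in IR. Ctrl replicate 1 listed 44.1% of all rows at 0, against 24.7 to 27.3% in the other 11 libraries. The atrial heart muscle gene Nppa was at 51.2 to 63.9 FPKM in the 3 IR libraries and in Ctrl replicates 2 and 3, and at most 0.26 FPKM in Ctrl replicate 1 and in all Ab_IR and L_IR libraries. This split separates IR completely from Ab_IR and L_IR, so that it can be set apart from the groups only through Ctrl replicate 1. Lower RNA levels of the markers can reflect fewer cells that make them or less RNA per cell, which cannot be told apart in bulk samples.

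**Figure D1:**
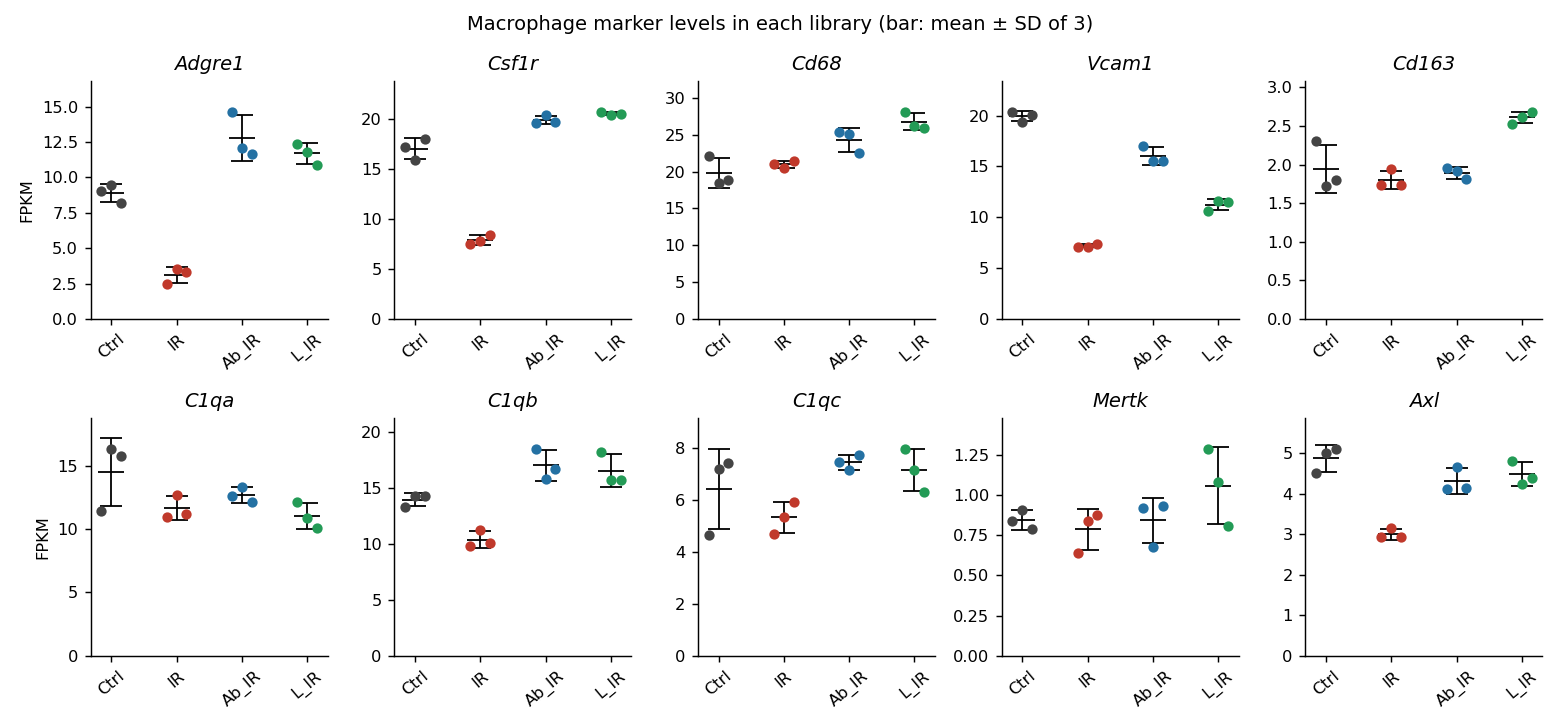
FPKM of the 10 macrophage markers in each of the 12 libraries, one panel per gene with its own axis from 0. Points are libraries and bars are the mean ± SD of 3. Adgre1, Csf1r, C1qb, Vcam1 and Axl are lowest in the IR libraries, whereas the C1qa, Cd163 and Mertk values of IR overlap those of Ctrl and of Ab_IR.

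Of the 10 markers, 5 were lower in the IR libraries than in any Ctrl library, and none was higher. The genes of this group were the surface receptors Adgre1, Csf1r and Vcam1, the complement chain C1qb and the receptor kinase Axl, while Cd68, C1qa, C1qc, Cd163 and Mertk overlapped between the groups. Among the 12072 genes tested, 58.1% did not overlap between IR and Ctrl, 32.8% being lower and 25.2% higher in IR. A gene was tested if it reached 1 FPKM in at least 3 of the 6 libraries compared, and it was called if its adjusted p was under 0.05 and its log2 fold change exceeded 1 in size (limma on log2(FPKM + 1), Benjamini-Hochberg adjustment). Of the 10 markers, 9 were tested, each of them above 1 FPKM in all 12 libraries. Of these, 3 were called, all lower in IR, against 4.57% of all genes called lower, 3.03% called higher and 7.6% in either direction. Without the limit on fold change, 5 markers were lower at an adjusted p under 0.05 and none was higher, against 25.5% of all genes lower, 17.5% higher and 43.1% in either direction. The median log2 fold change of the 9 was -0.40, and that of all genes tested was -0.046.

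Adgre1 encodes F4/80, the classical surface marker of mouse macrophages. Its level was 9.05, 9.48 and 8.22 FPKM in Ctrl replicates 1 to 3, 2.49, 3.52 and 3.30 in IR, 14.6, 12.1 and 11.6 in Ab_IR, and 12.4, 11.8 and 10.9 in L_IR. The 4 groups did not overlap except for Ab_IR and L_IR, and IR was lowest by a wide margin. Adgre1 fell in IR by 1.28 ± 0.12 on the log2 scale (SE, 3 libraries a group, adjusted p = 0.000379). It rose in Ab_IR over IR, with a log2 fold change of 1.75 ± 0.12 (adjusted p = 1.22e-05), and in L_IR over IR, with 1.64 ± 0.10 (adjusted p = 1.16e-05). On the scale of FPKM + 1 the last 2 differences are 3.36-fold and 3.11-fold.

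Csf1r encodes the receptor for the growth factors CSF1 and IL-34, on which most macrophages depend. Its level was 17.1, 15.9 and 17.9 FPKM in Ctrl, 7.49, 7.75 and 8.40 in IR, 19.6, 20.4 and 19.7 in Ab_IR, and 20.7, 20.3 and 20.5 in L_IR. All 9 libraries outside IR were at least 15.9 FPKM, and Ab_IR and L_IR both lay above Ctrl and overlapped each other. Csf1r fell in IR by 1.02 ± 0.07 on the log2 scale (adjusted p = 0.000162), just past the limit on fold change. The log2 fold change was -0.96 with quantile normalization, -0.95 with scaling by the median ratio, -0.98 without Ctrl replicate 3 and -0.99 without IR replicate 1, which ends the call although the adjusted p is at most 0.0022 in all alternatives. Csf1r rose in Ab_IR by a log2 fold change of 1.23 ± 0.05 (adjusted p = 1.01e-06) and in L_IR by 1.28 ± 0.04 (adjusted p = 7.60e-07). The gene overlaps Hmgxb3 on the opposite strand at its 3′ end and hosts the miRNA gene Mir6983. Whether reads were counted by strand is not given in the sources used here.

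Cd68 encodes a lysosomal glycoprotein of macrophages and other myeloid cells. Its level was 22.2, 18.5 and 18.9 FPKM in Ctrl, 21.0, 20.5 and 21.5 in IR, 25.3, 25.1 and 22.5 in Ab_IR, and 28.1, 26.2 and 25.9 in L_IR. IR lay within the range of Ctrl, whereas every Ab_IR and L_IR library was above every Ctrl and IR library. In IR against Ctrl the log2 difference was 0.081 ± 0.082 (adjusted p = 0.462). Without Ctrl replicate 1 it was 0.16 and passed the test (adjusted p = 0.0228). Cd68 rose by 0.20 ± 0.05 in Ab_IR over IR (adjusted p = 0.0109) and by 0.34 ± 0.04 in L_IR over IR (adjusted p = 0.000213), both far below a doubling. With a term for the Nppa split these differences were -0.035 and 0.10, and neither passed the test (adjusted p = 0.757 and 0.369).

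Vcam1 encodes the adhesion molecule VCAM1, the ligand of integrin α4β1 on stem and progenitor cells. Its level was 20.3, 19.4 and 20.03 FPKM in Ctrl, 7.11, 7.12 and 7.39 in IR, 17.0, 15.6 and 15.5 in Ab_IR, and 10.6, 11.6 and 11.5 in L_IR. None of the 4 groups overlapped, in the order Ctrl, Ab_IR, L_IR and IR, and Vcam1 was the only marker of the 10 with this property. It fell in IR by 1.35 ± 0.06 on the log2 scale (adjusted p = 2.70e-05). It rose in Ab_IR over IR with a log2 fold change of 1.05 ± 0.05 (adjusted p = 2.00e-06), which became 0.98 under quantile normalization and 0.99 under scaling by the median ratio and so lost the call on size. In L_IR over IR the rise was 0.58 ± 0.04 (adjusted p = 2.72e-05), below the limit on fold change. Gm43109, an antisense gene, overlaps its 5′ part.

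Vcam1 is also made by stromal and endothelial cells, and part of their markers moved with it. Of 12 such genes, 5 were tested. Among these, Col1a2, Cxcl12 and Pdgfrb were under 1 FPKM in every IR library and met the filter only through the group in which they were high, so that their direction was fixed by the filter and they are not counted. The others, Col1a1 (log2 fold change -3.67, adjusted p = 5.26e-06) and the endothelial gene Pecam1 (-0.85, adjusted p = 0.000258), were lower in IR than in Ctrl, and both were higher in Ab_IR (1.84 and 0.77) and in L_IR (1.85 and 0.69) than in IR at an adjusted p under 0.05. The summed level of the 12 genes was 140 to 166 FPKM in Ctrl, 15.2 to 16.0 in IR, 50.6 to 55.7 in Ab_IR and 50.5 to 52.1 in L_IR. In Ctrl, Ab_IR and L_IR most of it was Col1a1 and Col1a2, the chains of type I collagen, whereas in IR their means were 5.98 and 0.963 FPKM and that of Pecam1 was 6.42 FPKM. The stromal receptor gene Lepr was at most 0.57 FPKM, and no gene of the list was at 0 in any library. Of the 7 untested genes, Lepr and Kitl had means in the group order of Vcam1. Lepr was at 0.397 FPKM in Ctrl, 0.193 in Ab_IR, 0.183 in L_IR and 0.070 in IR, and Kitl at 0.463, 0.287, 0.257 and 0.190. Several others did not follow Vcam1. The endothelial genes Kdr, Cdh5 and Emcn had means of 0.227, 0.470 and 0.230 FPKM in Ctrl and 0.230, 0.457 and 0.240 in IR, and Kdr and Cdh5 were highest in L_IR, at 1.02 FPKM each. The collagen gene Col3a1 was lower in Ab_IR (0.0733 FPKM) than in IR (0.280 FPKM). Their part in the Vcam1 result was not tested.

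Cd163 encodes the scavenger receptor for haemoglobin bound to haptoglobin. Its level was 2.30, 1.72 and 1.80 FPKM in Ctrl, 1.73, 1.94 and 1.74 in IR, 1.95, 1.91 and 1.81 in Ab_IR, and 2.53, 2.62 and 2.68 in L_IR. The L_IR libraries were above the other 9, which overlapped. Cd163 rose in L_IR over IR by a log2 fold change of 0.37 ± 0.05 (adjusted p = 0.000728), and the value was 0.15 with quantile normalization (adjusted p = 0.0380) and 0.11 with the Nppa split as a term (adjusted p = 0.346). In IR against Ctrl the difference was -0.064 ± 0.10 (adjusted p = 0.649), and in Ab_IR against IR 0.044 ± 0.057 (adjusted p = 0.510). Both changed sign with the scaling.

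**Figure D2:**
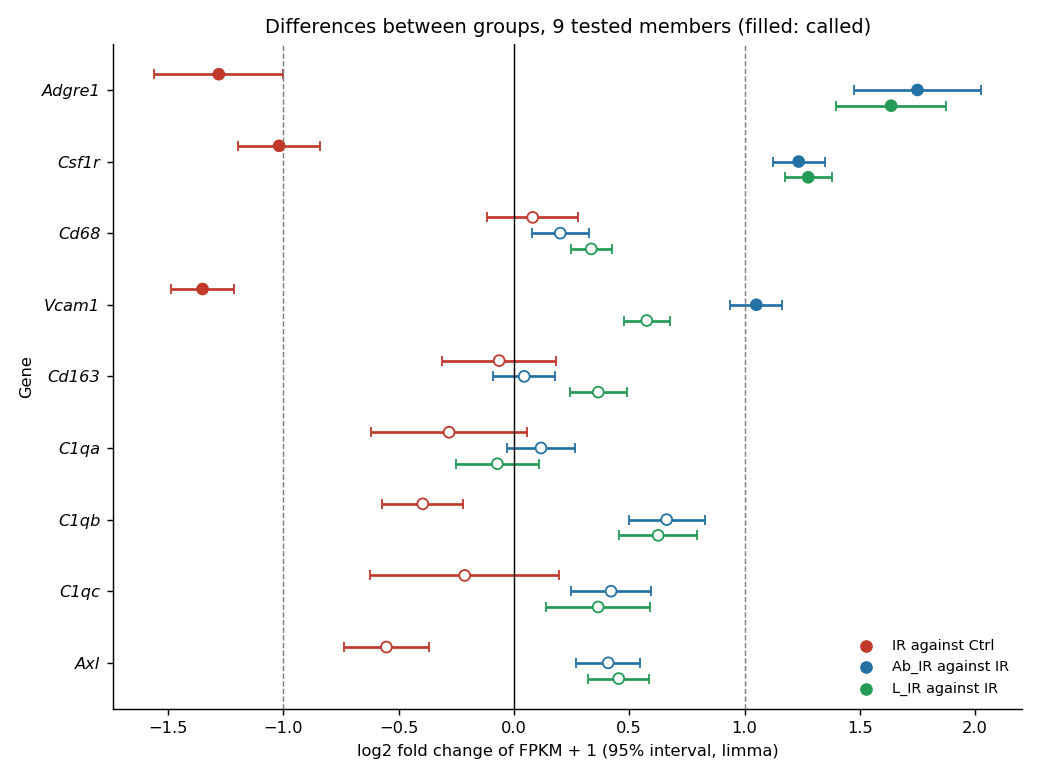
Log2 fold change of FPKM + 1 with its 95% interval (limma) for the 9 tested markers in IR against Ctrl, Ab_IR against IR and L_IR against IR, with dashed lines at -1 and 1. Filled points are called. Adgre1 and Csf1r are called in the 3 comparisons and Vcam1 in IR against Ctrl and Ab_IR against IR, and the remaining markers lie within the dashed lines.

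The 3 C1q chains form one protein, the recognition part of the classical complement pathway, in equal numbers, but their RNAs differed in how they varied. C1qa was at 11.5, 16.4 and 15.8 FPKM in Ctrl, 11, 12.8 and 11.3 in IR, 12.7, 13.4 and 12.1 in Ab_IR, and 12.1, 10.9 and 10.1 in L_IR. The IR values overlapped those of the other groups. The log2 difference of IR against Ctrl was -0.28 ± 0.14 (adjusted p = 0.155), and Ctrl replicate 1, the lowest of its group, set the spread. Without it C1qa was lower in IR by a log2 fold change of -0.43 that passed the test (adjusted p = 0.00288). Ab_IR against IR gave 0.12 ± 0.06 (adjusted p = 0.136), which became 0.18 and passed the test without IR replicate 2 (adjusted p = 0.0298). L_IR against IR gave -0.072 ± 0.076 (adjusted p = 0.430). With the Nppa split as a term, Ab_IR and L_IR against IR became 0.57 (adjusted p = 0.00245) and 0.38 (adjusted p = 0.0239).

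C1qb was at 13.3, 14.4 and 14.3 FPKM in Ctrl, 9.86, 11.2 and 10.1 in IR, 18.5, 15.9 and 16.7 in Ab_IR, and 18.3, 15.8 and 15.8 in L_IR. IR was below Ctrl, and Ctrl was below both Ab_IR and L_IR, with no overlap. C1qb fell in IR by 0.40 ± 0.07 on the log2 scale (adjusted p = 0.00614). It rose in Ab_IR over IR by 0.66 ± 0.07 (adjusted p = 0.000120) and in L_IR over IR by 0.63 ± 0.07 (adjusted p = 0.000228). None of these differences reached a doubling.

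C1qc was the lowest of the chains at 4.67, 7.21 and 7.43 FPKM in Ctrl, 4.71, 5.36 and 5.93 in IR, 7.48, 7.16 and 7.73 in Ab_IR, and 7.98, 7.17 and 6.33 in L_IR. Ctrl replicate 1 lay below all IR libraries, whereas Ctrl replicates 2 and 3 lay above them. The log2 difference of IR against Ctrl was -0.21 ± 0.17 (adjusted p = 0.352), and without Ctrl replicate 1 it was -0.40 and passed the test (adjusted p = 0.00977). C1qc rose in Ab_IR over IR by 0.42 ± 0.07 (adjusted p = 0.00167). The rise in L_IR over IR was 0.37 ± 0.10 (adjusted p = 0.0123), and it did not pass under quantile normalization or with all 12 libraries in one fit, where the adjusted p reached 0.0552. With the Nppa split as a term the rise in Ab_IR was 0.97 (adjusted p = 0.000235) and that in L_IR 0.92 (adjusted p = 0.000457).

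The ratio of C1qb to C1qa within a library needs no scaling between libraries. It was 1.16, 0.876 and 0.905 in Ctrl, 0.896, 0.882 and 0.896 in IR, 1.46, 1.19 and 1.38 in Ab_IR, and 1.51, 1.44 and 1.56 in L_IR. The 3 IR libraries and Ctrl replicates 2 and 3 lay below 1, and all libraries of Ab_IR and L_IR, with Ctrl replicate 1, lay above it. These are also the 2 sets of libraries that the Nppa level separates. The ratio of C1qc to C1qa was 0.408 to 0.471 in Ctrl, 0.420 to 0.527 in IR, 0.536 to 0.637 in Ab_IR and 0.625 to 0.658 in L_IR, and here Ctrl replicate 1 had the lowest value of the 12. Over the 12 libraries, C1qb varied with Adgre1 (Pearson r = 0.966 of log2(FPKM + 1)) and with Csf1r (r = 0.927), but with C1qa r was 0.145. The points share their group and library, and these values are descriptions.

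**Figure D3:**
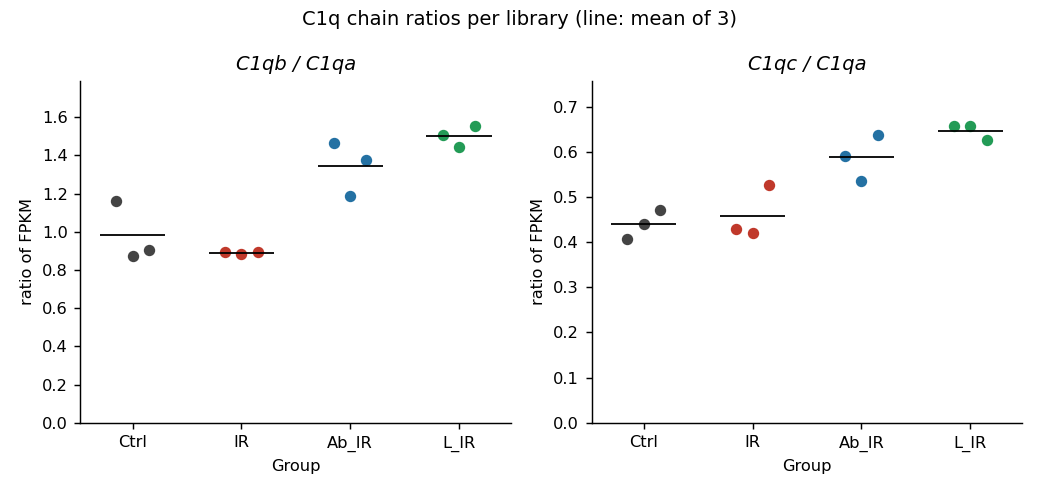
Ratios of C1qb to C1qa (left) and of C1qc to C1qa (right) in FPKM for each library, with points for libraries and lines for the mean of 3. For C1qb, all 6 Ab_IR and L_IR libraries and Ctrl replicate 1 lie above 1 and the other 5 lie below it.

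Axl and Mertk encode receptor tyrosine kinases that reach dying cells through the bridging ligands Gas6 and, for MERTK, protein S. Axl was at 4.50, 5.01 and 5.11 FPKM in Ctrl, 2.92, 3.16 and 2.92 in IR, 4.12, 4.67 and 4.15 in Ab_IR, and 4.82, 4.24 and 4.39 in L_IR. Every IR library was below every other library, and the remaining groups overlapped. Axl fell in IR by 0.55 ± 0.08 on the log2 scale (adjusted p = 0.00196), and rose in Ab_IR over IR by 0.41 ± 0.06 (adjusted p = 0.000608) and in L_IR over IR by 0.45 ± 0.06 (adjusted p = 0.000325). With quantile normalization the latter values were 0.25 and 0.28, and both passed the test. Mertk was close to the limit of the filter, at 0.84, 0.91 and 0.79 FPKM in Ctrl, 0.64, 0.84 and 0.88 in IR, 0.92, 0.68 and 0.93 in Ab_IR, and 1.29, 1.08 and 0.81 in L_IR. All groups overlapped, and Mertk entered no test. With no filter on low values its log2 differences ranged from -0.16 in Ab_IR against L_IR to 0.20 in L_IR against IR, and the lowest adjusted p of the 6 comparisons was 0.243. The annotated antisense gene Gm14011 and the snoRNA gene Gm23172 lie within it.

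Ab_IR and L_IR were each compared with IR, so that both comparisons share the 3 IR libraries. In Ab_IR, 7 of the 10 markers lay above all IR libraries and 3 overlapped, where 41.4% of 12067 genes tested lay above and 31.6% below, 73% in all. Adgre1, Csf1r and Vcam1, 3 of the 9 tested, were called higher, against 5.11% of all genes higher, 2.46% lower and 7.57% in either direction. At an adjusted p under 0.05 alone 7 were higher, against 39.4% of all genes higher, 29.4% lower and 68.7% in either direction. In L_IR, 8 markers lay above all IR libraries and 2 overlapped, where 43.1% of 12163 genes lay above and 28.2% below, 71.2% in all. Adgre1 and Csf1r were called higher, against 4.09% of all genes higher, 2.13% lower and 6.22% in either direction. At an adjusted p under 0.05 alone 8 markers were higher, against 40.8% of all genes higher, 26% lower and 66.8% in either direction. No marker was lower in either comparison at an adjusted p under 0.05. With the Nppa split as a term, Adgre1 rose by 1.72 and 1.60, Csf1r by 1.22 and 1.26 and Vcam1 by 1.01 and 0.53 in Ab_IR and L_IR over IR, with the calls the same. The median log2 fold change of the 9 tested markers was 0.42 in Ab_IR and 0.45 in L_IR, and those of all genes were 0.061 and 0.073.

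Ab_IR and L_IR differed directly in 2 markers at an adjusted p under 0.05, against 18.2% of genes higher, 19.8% lower and 38% in either direction. Vcam1 was higher in Ab_IR by a log2 fold change of 0.48 ± 0.05 (adjusted p = 0.000741), and Cd163 was lower in Ab_IR, with -0.32 ± 0.05 (adjusted p = 0.00341). No marker was called by limma, against 0.533% of 12194 genes, and 4 did not overlap, C1qa and Vcam1 being higher and Cd68 and Cd163 lower in Ab_IR, where 25.2% of genes were higher, 26.7% lower and 51.9% did not overlap. At an unadjusted p under 0.05, Cd68 (-0.13 ± 0.06) and C1qa (0.19 ± 0.07) joined these 2, against 48.1% of all genes at that threshold. C1qa passed the adjusted threshold in 3 alternatives, namely the filter on an average of 10 FPKM, scaling by the median ratio and the fit without L_IR replicate 1 (lowest adjusted p = 0.0255), and Cd68 passed with quantile normalization (adjusted p = 0.0214). For Adgre1 the difference was 0.11 with a 95% interval from -0.089 to 0.32, and for Csf1r -0.041 with an interval from -0.12 to 0.041. C1qb, C1qc and Axl differed by 0.056 or less in size, and their intervals included 0.

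The irradiated groups Ab_IR and L_IR were also set against the unirradiated Ctrl. No marker was called in either comparison by limma, where 0.923% of 12134 and 2.65% of 12251 genes were called. In Ab_IR, Adgre1, Csf1r, Cd68 and C1qb lay above all Ctrl libraries and Vcam1 below, whereas 16% of genes lay above and 17.6% below, 33.5% in all. None of the 9 passed an adjusted p of 0.05, as 2.1% of genes did, and Adgre1 (0.47 ± 0.10, adjusted p = 0.0892) and Vcam1 (-0.30 ± 0.07, adjusted p = 0.103) came closest. At an unadjusted p under 0.05, 5 of the 9 differed, namely Adgre1, Csf1r, Cd68, C1qb and Vcam1, against 20.9% of all genes. With all 12 libraries in one fit, which shares the spread of the 4 groups, these 5 passed the adjusted threshold, and without Ctrl replicate 1, Cd68 (higher) and C1qa (lower) passed. With the Nppa split as a term 6 passed, 4 higher (Adgre1, Csf1r, C1qb and C1qc) and 2 lower (Vcam1 and Cd163), C1qc with a log2 fold change of 0.58 (adjusted p = 0.00179).

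In L_IR against Ctrl, Vcam1 stayed lower, by a log2 fold change of -0.77 ± 0.06 (adjusted p = 0.000845), and this passed in every alternative. Adgre1 was higher by 0.36 ± 0.08 (adjusted p = 0.0442) and Cd68 by 0.42 ± 0.09 (adjusted p = 0.0340), against 4.76% of genes higher, 4.08% lower and 8.84% in either direction. Adgre1 lost the test in 9 of 14 alternatives and Cd68 in 7 of 15, including each fit that left out an L_IR library, where only Vcam1 passed. Without Ctrl replicate 1, 6 markers passed, and with Ctrl replicate 2 or 3 left out only Vcam1 did. With all 12 libraries in one fit 5 passed, Csf1r and Cd163 joining as higher. With the Nppa split as a term 5 also passed, of which Csf1r, Cd68, C1qb and C1qc were higher and Vcam1 lower, while Adgre1 did not pass (adjusted p = 0.0878). Of the 10 markers, 5 lay above all Ctrl libraries and 1 below, where 17.6% of genes lay above, 18.4% below and 36.1% did not overlap.

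Some markers of dendritic cells and the monocyte gene Ly6c2 moved with Adgre1 and Csf1r. The summed level of 8 dendritic cell genes was 58.6 to 66.5 FPKM in Ctrl, 31.4 to 37.9 in IR, 61.3 to 63.0 in Ab_IR and 60.6 to 64.4 in L_IR, most of which was Bst2 at 27.9 to 46.4 FPKM. Of the 6 that were tested, Siglech, Clec9a and Cd209a met the filter only through the group in which they were high, so that their direction was fixed by it. The others, Flt3 (log2 fold change -2.46, adjusted p = 3.17e-05), Itgax (-1.04, adjusted p = 0.000848) and Bst2 (-0.29, adjusted p = 0.0418), were lower in IR than in Ctrl and, at 2.03, 0.80 and 0.50, higher in Ab_IR than in IR. The defining dendritic cell genes Zbtb46 and Xcr1 were at most 0.92 and 0.63 FPKM, and none of the 8 was at 0. Zbtb46 was at 0.65 to 0.84 FPKM in Ctrl, 0.11 to 0.24 in IR, 0.81 to 0.92 in Ab_IR and 0.74 to 0.88 in L_IR. Xcr1 did not share this order, at 0.19 to 0.39 FPKM in Ctrl, 0.14 to 0.22 in IR, 0.17 to 0.34 in Ab_IR and 0.49 to 0.63 in L_IR. Ly6c2 was at 148 to 174 FPKM in Ctrl, 34.0 to 37.4 in IR, 98.5 to 103 in Ab_IR and 90.3 to 95.8 in L_IR. Ccr2, the other monocyte gene of the list, had means of 15.5 FPKM in Ctrl and 13.3 in IR and did not pass that test (log2 difference -0.20, adjusted p = 0.105), whereas it rose over IR by 0.38 with Ab_IR (adjusted p = 0.000194) and by 0.52 with L_IR (adjusted p = 5.75e-05). The summed level of all 10 neutrophil and monocyte genes went the other way, at 8489 to 10002 FPKM in Ctrl, 12902 to 13191 in IR, 9395 to 9807 in Ab_IR and 6582 to 6769 in L_IR. Of these 10, only S100a8 (1701 against 578 FPKM), S100a9 (3765 against 1472) and Ngp (1680 against 1112) were higher in IR than in Ctrl at an adjusted p under 0.05, Ly6c2 and Fcnb (-0.34, adjusted p = 0.0121) were lower, and 5 did not pass, against 17.5% of all genes higher and 25.5% lower. Erythroid and megakaryocyte genes were also lowest in IR, at 320 to 324 and 11.9 to 13.8 FPKM, against at least 920 and 52.8 FPKM in the other groups. The part of these cells in the Adgre1 and Csf1r results was not tested.

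**Figure D4:**
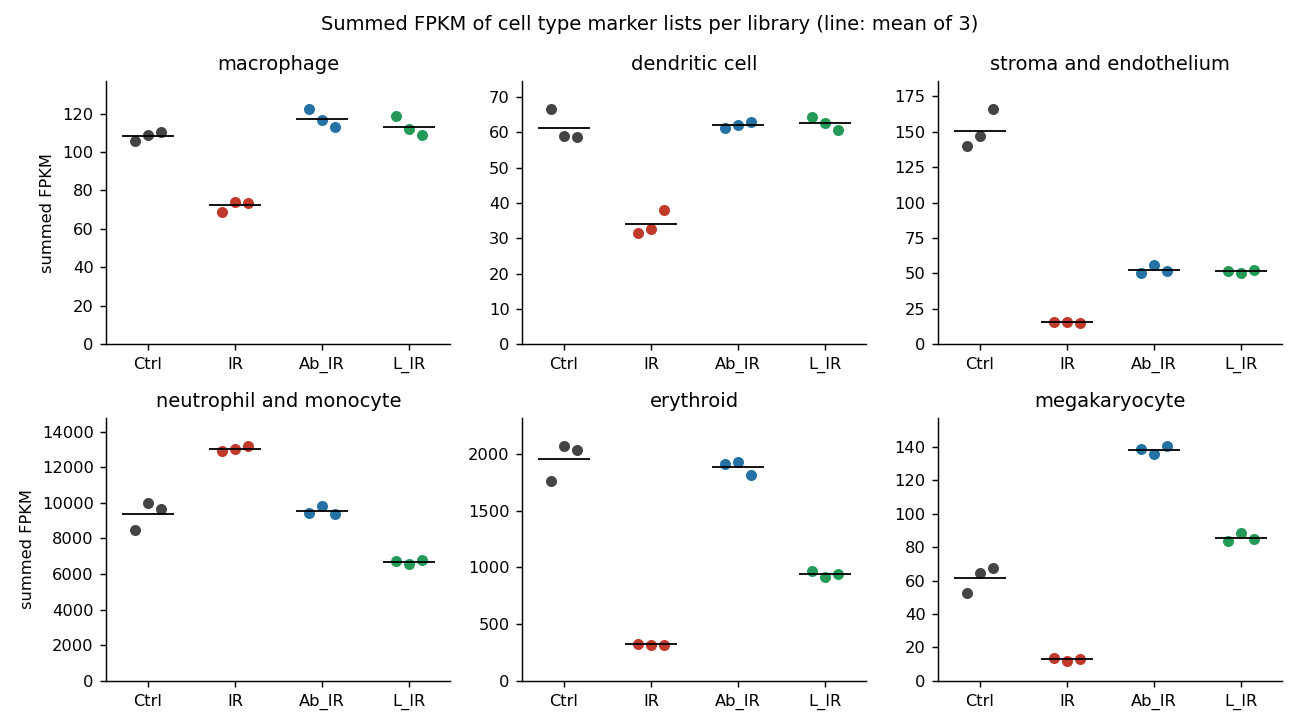
Summed FPKM of the 10 macrophage markers and of 5 marker lists of other cells in each library, with points for libraries, lines for the mean of 3 and an axis from 0 in each panel. The macrophage, dendritic, stromal, erythroid and megakaryocyte sums are lowest in the IR libraries, and the neutrophil and monocyte sum is highest there, with 3 of its 10 genes higher and 2 lower in IR than in Ctrl at an adjusted p under 0.05.

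Genes of related functions, in 5 lists, did not share one direction. These lists are not confined to macrophages, and the libraries held 6582 to 13191 FPKM of neutrophil and monocyte genes. The part of those cells in the counts was not tested. The counts of these lists include genes that met the filter through 1 of the groups alone, which fixed their direction. They made up 0 to 18.2% of a list, against 4.51 to 5.53% of all genes tested. The share was highest in the iron recycling list in IR against Ctrl (18.2%). It was 15% in the apoptotic cell uptake list in L_IR against IR, and 14.3% in the list of further macrophage genes in Ab_IR and in L_IR against IR. Of 15 genes of iron recycling and island macrophages, 11 were tested in IR against Ctrl. At an adjusted p under 0.05, 5 of them were higher and 2 lower, where 17.5% of all genes were higher and 25.5% lower. The median log2 fold change of the 11 was 0.33, against -0.046 over all genes. Cd5l, which encodes an apoptosis inhibitor secreted by macrophages, was called higher at 2.89 against 0.547 FPKM (log2 fold change 1.38 ± 0.26, adjusted p = 0.00657). Blvrb, which encodes a biliverdin reductase that is also abundant in red cell precursors, was called lower at 7.33 against 46.3 FPKM (-2.50 ± 0.11, adjusted p = 3.17e-05). Blvrb was called higher in Ab_IR over IR (2.67 ± 0.07) and in L_IR over IR (2.10 ± 0.06), and was the only called gene of the list in both. At an adjusted p under 0.05, 6 of 11 were higher and 3 lower in Ab_IR over IR, against 39.4% and 29.4% of all genes, and 5 and 2 of 11 in L_IR over IR, against 40.8% and 26%. Siglec1, the sialoadhesin gene of island macrophages, was at 0.65 to 0.90 FPKM in Ctrl, 1.2 to 1.91 in IR, 2.46 to 2.59 in Ab_IR and 2.91 to 4.27 in L_IR. The 4 groups did not overlap. In IR against Ctrl, Siglec1 met the filter through IR alone, so that its direction was fixed and its test is not given. Siglec1 is among the 5 higher genes counted above, and Hpgd, which met the filter through Ctrl alone, among the 2 lower. Siglec1 rose in Ab_IR (0.44 ± 0.11, adjusted p = 0.00795) and L_IR (0.77 ± 0.14, adjusted p = 0.00280) over IR. The mannose receptor gene Mrc1, at 2.70 to 6.35 FPKM, was higher in IR than in Ctrl (0.71, adjusted p = 0.000754) and lower in Ab_IR than in IR (-0.83, adjusted p = 3.94e-05), and Fcna was at 2.03 to 5.28 FPKM. Other genes of resident macrophages were at low levels in all groups, with Spic, the factor of splenic red pulp macrophages, at 0.28 to 1.02 FPKM, Timd4 at most 0.73, Marco at most 0.31 and Vsig4 at most 0.52.

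Of 24 genes of apoptotic cell uptake, 17 were tested in IR against Ctrl, of which 6 were higher and 4 lower at an adjusted p under 0.05, beside the 17.5% and 25.5% of all genes. The share of lower genes was thus close to that over all genes, and the median log2 fold change was 0.15 against -0.046. Only Anxa5, which encodes a protein that binds exposed phosphatidylserine, was called, at 21.2 against 55.6 FPKM (-1.35 ± 0.06, adjusted p = 3.03e-05). It was called higher in Ab_IR (1.66 ± 0.06) and in L_IR (1.24 ± 0.02) over IR. Gas6 and Pros1, which encode these ligands, did not pass the test between IR and Ctrl, with log2 differences of -0.25 (adjusted p = 0.268) and 0.0066 (adjusted p = 0.971). Tyro3, the third receptor kinase of the family, was at most 0.49 FPKM. In L_IR over IR, the annexin gene Anxa1 was called lower at 74.2 against 260 FPKM (-1.80 ± 0.03, adjusted p = 2.82e-08). Counting both directions, 5 genes were higher and 10 lower of 17 tested in Ab_IR over IR, where all genes gave 39.4% and 29.4%, and 8 higher and 9 lower of 20 tested in L_IR over IR, where all genes gave 40.8% and 26%.

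Of 26 complement genes outside C1q, 17 were tested in IR against Ctrl, of which 7 were higher and 7 lower at an adjusted p under 0.05, and 2 and 4 were called. Over all genes 17.5% were higher and 25.5% lower, and 3.03% and 4.57% were called, and the median log2 fold change was 0.097 for the list and -0.046 over all genes. C5ar1, the receptor for the anaphylatoxin C5a, was at 15.2 against 3.34 FPKM (1.89 ± 0.08, adjusted p = 2.53e-05), whereas Cd59a, which encodes an inhibitor of the membrane attack complex, was at 1.497 against 7.84 FPKM (-1.84 ± 0.13, adjusted p = 0.000144). Both went the other way in Ab_IR over IR (C5ar1 -1.82 ± 0.09, Cd59a 1.83 ± 0.12). In L_IR over IR the gene with the greatest rise was C3ar1, the receptor for C3a (1.55 ± 0.25), and the one with the greatest fall was C5ar1 (-2.29 ± 0.06). In these comparisons 10 of 18 and 9 of 17 genes were higher and 7 were lower in each, beside 39.4% higher and 29.4% lower of all genes in Ab_IR and 40.8% and 26% in L_IR. The partner proteases of C1q were low, with C1ra at 0.61 to 2.11 FPKM and C1s1 at 0.13 to 0.61.

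Of 21 genes of the CSF1 receptor axis and macrophage transcription factors, 18 were tested in IR against Ctrl, 9 being higher and 3 lower at an adjusted p under 0.05, where 17.5% of all genes were higher and 25.5% lower. The median log2 fold change was 0.26 against -0.046 over all genes. Irf8, a factor of the monocyte and dendritic lineages, was called lower at 7.56 against 25.1 FPKM (-1.60 ± 0.09, adjusted p = 6.20e-05), and Cebpb higher at 3.57 against 0.790 FPKM (1.39 ± 0.27, adjusted p = 0.00794). Spi1, which encodes PU.1, was the other called gene and was also higher in IR, at 123 against 59.9 FPKM (1.03, adjusted p = 0.000501). The level of Csf1, a ligand of the receptor, was 7.95 against 7.32 FPKM (0.11, adjusted p = 0.359), and the other ligand, Il34, was at most 0.12 FPKM. Irf8 was called higher in Ab_IR (1.89 ± 0.04) and L_IR (1.97 ± 0.03) over IR. Of 19 tested, 6 genes were higher and 10 lower in Ab_IR over IR, and 6 and 11 in L_IR. The shares over all genes were 39.4% and 29.4% in Ab_IR and 40.8% and 26% in L_IR. In Ab_IR the gene with the greatest fall was Cbl, a ubiquitin ligase that acts on the receptor (-1.13 ± 0.04).

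Of 29 further genes common to macrophages but not confined to them, 25 were tested in IR against Ctrl. Of these, 11 were higher and 2 lower at an adjusted p under 0.05, beside 17.5% and 25.5% of all genes. The median log2 fold change was 0.23 against -0.046 over all genes. Fcgr4, an IgG receptor gene, was called higher at 10.5 against 2.59 FPKM (1.76 ± 0.29, adjusted p = 0.00400). Cx3cr1, the receptor for fractalkine, had means of 0.840 FPKM in IR and 2.71 in Ctrl and met the filter through Ctrl alone. Its direction was thus fixed by the filter and its test is not given, although it is among the 2 lower genes counted above. In Ab_IR over IR 15 of 28 genes were higher and 9 lower (39.4% and 29.4% of all genes), led by Gpnmb (1.83 ± 0.41) and the endotoxin receptor gene Tlr4 (-1.23 ± 0.05). In L_IR over IR 13 of 28 were higher and 12 lower (40.8% and 26% of all genes), led by Gpnmb (2.21 ± 0.42) and Cybb, a subunit of the phagocyte oxidase (-1.34 ± 0.02). In both comparisons Aif1, Cx3cr1, Ms4a7 and Trem2, 4 of the 28, met the filter through Ab_IR or L_IR alone. Their direction was therefore fixed as higher. Itgam, whose product is the sort's lineage antigen Mac-1, was at 30.6 to 34.6 FPKM in Ctrl, 51.3 to 53.0 in IR, 30.2 to 33.2 in Ab_IR and 23.2 to 26.5 in L_IR. IR was thus the group with the highest Itgam and the lowest Adgre1, with no overlap in either gene.

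**Figure D5:**
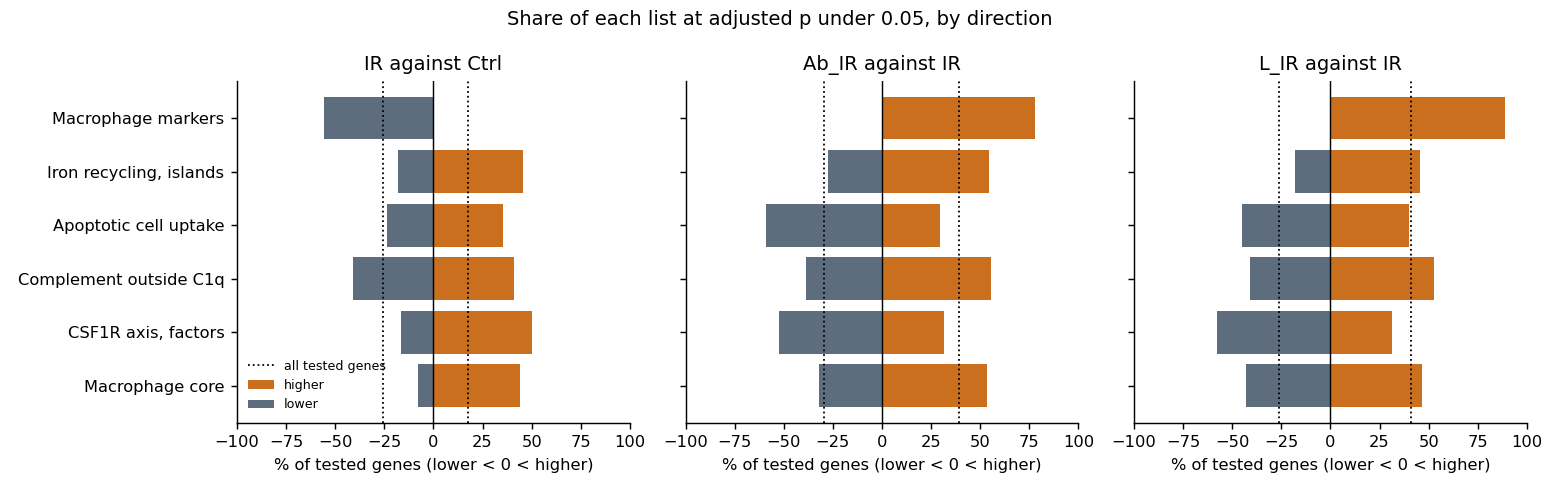
Share of the tested genes of each list that differed at an adjusted p under 0.05 (limma), with higher genes to the right of 0 and lower genes to the left, in % of tested genes. Dotted lines give the shares over all genes tested. In IR against Ctrl the 9 tested macrophage markers have 5 lower and 0 higher, whereas the macrophage core list, which is not confined to macrophages, has 2 lower and 11 higher of 25. The shares include genes whose direction was fixed because they met the filter through a single group, Cx3cr1 being among these 2 lower genes.

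For each marker with a mean of at least 5 FPKM, the genes with the most similar profile were sought among 7638 genes of that level, by Pearson r of log2(FPKM + 1) over the 12 libraries. Adgre1 was most like Cmpk2 (r = 0.993), Plek (0.991) and Irf7 (0.990), and Csf1r was most like Irf8 (0.994), Nlrp3 (0.992) and Tcf3 (0.992). Vcam1 was most like Car1 (0.989), Glul (0.988) and Nr4a1 (0.985), and Car1, the red cell carbonic anhydrase, ranged from 35.7 to 604 FPKM. Cd68 came closest to Cd79a (0.946), a gene of B cells, then Igkv2-137 (0.940) and Lgmn (0.927). C1qb was most like Lat2 (0.961), H2-Ea (0.960) and Ypel3 (0.958), and C1qc like Arfrp1 (0.970), Uqcc3 (0.935) and Gm10073 (0.934). C1qa, the marker with the weakest matches, was most like Gm14414 (0.911) and Gm14438 (0.902), members of a family of near-identical zinc finger genes whose reads may be shared, and Rangrf (0.867). No gene appeared in the first 3 of more than 1 marker. Among the markers themselves, Adgre1 and Csf1r had the highest correlation (r = 0.977), and Cd68 and C1qa the lowest (r = -0.591). With 4 groups behind 12 points, such values mostly describe the order of the groups.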

How the data were processed

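Total RNA of sorted cells was made into libraries with the TruSeq Stranded mRNA kit. The processing notes of the submitters name fastp, HISAT2, StringTie and GRCm38/mm10, whereas the methods of the study name RSEM, so which tool made the deposited values is uncertain. Each file that the authors deposited holds 1 value per gene, read here as FPKM from its totals. No counts were used, values were not whole multiples of 1 read (at most 25.7% within a tolerance of 0.1, with 20% by chance), and the depth of each library is unknown. Gene names were matched to GENCODE M21 (96.7% of distinct names matched a single gene).

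For each pair of groups, a limma fit (version 3.58.1, R 4.3.3, empirical Bayes with a trend) was made on log2(FPKM + 1) for genes that reached 1 FPKM in 3 or more of the 6 libraries, with Benjamini-Hochberg adjustment over all genes tested. The fold changes understate the change of low genes. The thresholds follow the study, whose own test on counts could not be used on these values. The fit was tested on simulated data. Figures used Python 3.11.15 and matplotlib 3.10.9. The members and lists were chosen with earlier results of these data known. From each list, the called gene with the greatest change in each direction in IR against Ctrl, Ab_IR against IR and L_IR against IR was named, and for likeness the first 3 genes. Spi1, Csf1, Il34, Gas6, Pros1, Tyro3, Itgam, C1ra, C1s1, Siglec1, Mrc1, Fcna, Spic, Timd4, Marco, Vsig4 and single markers of other cells were named after their values were seen.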

Additional observations from a re-analysis of the deposited data

How the results depend on the processing

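In IR against Ctrl, 2 markers in place of 3 were called with quantile normalization, with median scaling, when only genes averaging 10 FPKM or more were tested, without Ctrl replicate 3 and without IR replicate 1. In Ab_IR against IR, 2 in place of 3 were called under the first 3 of these settings. In L_IR against IR, 1 in place of 2 was called under the 10 FPKM filter, where Adgre1 did not enter. In the other alternatives of these comparisons the counts were those reported, and in the remaining comparisons no marker was called in any alternative. In no comparison was every replicate most like the same-numbered one of the other group, with r of same-numbered pairs from -0.268 to 0.224. With 3 libraries a group this cannot show whether same-numbered replicates share an animal or a batch. The replicate block left 3, 3, 2, 0, 0 and 0 markers called in the 6 comparisons. It lowered the markers at an adjusted p under 0.05 in L_IR against Ctrl from 3 to 1. Without Ctrl replicate 1, 8 markers in place of 5 passed in IR against Ctrl.

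The sign of small, uncalled differences depended on the setting. For Cd163, IR against Ctrl gave 0.14 with quantile normalization, 0.0042 with median scaling, and -0.12 to 0.022 when 1 library was left out (0.022 without Ctrl replicate 1). Ab_IR against IR gave -0.13, -0.017 and, with the Nppa split as a term, -0.21. Ab_IR against Ctrl gave 0.011 with quantile normalization and -0.073 to 0.066 with 1 library left out (0.066 without Ctrl replicate 1 and 0.00037 without Ab_IR replicate 3). The split term turned Cd68 in Ab_IR against IR to -0.035, C1qa in L_IR against IR to 0.38 and C1qa in Ab_IR against Ctrl to 0.14. Leaving out 1 library turned C1qb (-0.022 to 0.10, the lowest without Ab_IR replicate 1) and C1qc (-0.019 to 0.13, the lowest without L_IR replicate 3) in Ab_IR against L_IR, and C1qc in L_IR against Ctrl (-0.033 to 0.25, the lowest without Ctrl replicate 1). The causes were not tested, and the split term rests on Ctrl replicate 1 alone.

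Over all genes, the calls of IR against Ctrl fell from 918 to 405 under the filter on an average of 10 FPKM, which leaves 5035 genes. Those of Ab_IR against IR went from 914 to 367 under that filter, to 1512 with a pseudocount of 0.1 and to 1960 with the split term. Those of L_IR against IR went from 756 to 302, 1294 and 1554. Ab_IR against L_IR gave 42 and 165 in place of 65. Ab_IR against Ctrl gave 70 under that filter, 73 with no filter, 811 with the split term and 60 to 65 without an Ab_IR library, in place of 112. L_IR against Ctrl gave 206 under that filter and 876 with the split term, in place of 325. In L_IR against IR, 65.7% of calls were higher, and 55.4% with quantile normalization. The scaling alternatives moved the median of all genes by less than 0.1.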
